A study of Mus musculus with 6 samples.

Results

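The 10 genes described here encode chains of collagens that build networks, coat fibrils or anchor other matrix. They are Col6a1, Col6a2, Col6a3, Col8a1, Col12a1, Col14a1, Col16a1, Col15a1, Col18a1 and Col7a1, taken by gene symbol from the raw count table, where each matched 1 of the 14831 genes listed. All 10 passed the filter on reads and were tested, among 14289 tested genes, Col15a1 only through the libraries where it was higher. RNAseq was performed on 6 libraries of immortalized mouse pancreatic fibroblasts of mixed strain, each from its own confluent culture well, 3 labelled WT and 3 labelled Gli2-/-;Gli3-/- (below called labelled KO). According to the methods, such lines came from adult pancreas of mice with floxed Gli alleles and were infected after immortalization, with an eGFP adenovirus and a dsRed lentivirus for control cells or with an eGFP and a Cre adenovirus for KO cells, and infected cells were sorted. How many lines lie behind the wells is not given in the sources used here, so the p-values measure the spread between wells, which may be technical.

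Collagen VI is assembled from 3 different chains, encoded by Col6a1, Col6a2 and Col6a3, into beaded filaments that surround cells and bind many other matrix proteins. Collagen VIII forms hexagonal networks in subendothelial matrix and other sheets. Collagens XII, XIV and XVI are fibril-associated collagens with interrupted triple helices, which sit on the surface of collagen fibrils and space or link them. Collagens XV and XVIII lie near basement membranes and release fragments known as restin and endostatin from their C-terminal ends, and collagen VII makes the anchoring fibrils under epithelia. The last 3 are therefore neither network nor fibril-coating collagens in the strict sense. Pancreatic fibroblasts are the main source of the collagenous stroma that surrounds pancreatic cancer.

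Depth was similar between the groups, with 31728420 to 33905521 counts per WT-labelled library and 32781730 to 41035931 per KO-labelled library. The genes named in the genotype were read first. Gli2 was at 25.8, 28.2 and 27.2 CPM, the count scaled to a library total of 1000000, in the WT-labelled libraries and 54.6, 55.6 and 58.3 CPM in the KO-labelled libraries, and Gli3 at 12.5, 12.4 and 12.5 CPM against 40.5, 39.3 and 42.5 CPM. Both had more reads in every KO-labelled library, which goes against the genotype on the labels, although counts over a whole gene do not show which exons were read. All directions below are those of the labels. Of the fibroblast markers Pdgfra, Pdgfrb, Col1a1, Col1a2, Vim, Thy1, Pdpn, Dcn, Fap and Fbln2, 8 of 10 had a row, with a summed level of 38784 to 41100 CPM in the WT-labelled libraries and 36397 to 37924 CPM in the KO-labelled libraries. Col1a1 and Col1a2 made up most of that sum, and other fibroblast markers moved. Pdgfra fell by 0.90, Pdgfrb fell by 0.66 and Dcn fell by 1.55 on the log2 scale, while Fbln2 rose by 0.53. Thy1 was near 0, with 0 to 4 counts against 9 to 19, and Pdpn and Fap had no row among the genes analysed here. The mesothelial markers Msln, Upk3b, Lrrn4 and Wt1 (4 of 4 with a row) summed to 21.5 to 24.4 CPM in the WT-labelled libraries and 267.0 to 267.4 CPM in the KO-labelled libraries. Of the other marker lists, 4 of 7 epithelial genes had a row (12.8 to 13.8 CPM against 29.5 to 30.4 CPM), with no row for Epcam, Krt18 or Krt19 and Krt8 at 0 to 2 counts against 7 to 12, 1 of 4 acinar genes (7.36 to 8.84 CPM against 13.6 to 15.4 CPM), 2 of 5 leukocyte genes (2.11 to 2.29 CPM against 2.37 to 2.90 CPM), 3 of 4 Schwann cell genes (3.61 to 5.20 CPM against 3.61 to 4.68 CPM), 2 of 5 mural genes (1814 to 1974 CPM against 1880 to 1967 CPM) and 0 of 5 endothelial genes. The epithelial rise lay mainly in Krt7, with 153, 144 and 126 counts against 811, 975 and 760, while Sox9 was lower, with 269, 281 and 273 against 198, 251 and 214. The mural sum was nearly all Acta2, and Mcam rose from 111, 131 and 103 counts to 671, 872 and 708. The part of these markers in the collagen differences was not tested. In bulk cultures, fewer cells of a type and less RNA per cell cannot be told apart.

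The 10 collagens did not move together. Relative to the WT-labelled libraries, Col14a1 and Col8a1 were lower in the KO-labelled libraries, Col15a1 and Col18a1 were higher, Col7a1 and Col12a1 rose by less than 1.5-fold, Col6a3 fell by less than 1.5-fold, and Col6a1, Col6a2 and Col16a1 did not pass the test. A gene was called where edgeR's quasi-likelihood test gave a Benjamini-Hochberg adjusted p under 0.05 over all tested genes and the change was at least 1.5-fold. Under this rule 4 of the 10 collagens were called, 2 higher and 2 lower, beside 17.7% of all tested genes (11.6% called higher and 6.1% called lower). Col15a1, among those called higher, passed the filter on reads only through the KO-labelled libraries. By the adjusted p alone 7 of the 10 passed, 4 higher and 3 lower, beside 58.7% of all tested genes (29.9% higher and 28.8% lower), a share near this background. The groups did not overlap for 7 of the 10, beside 64.2% of all tested genes. The median log2 fold change of the 10 was 0.05, and over all tested genes it was 0.0020.

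**Figure D1:**
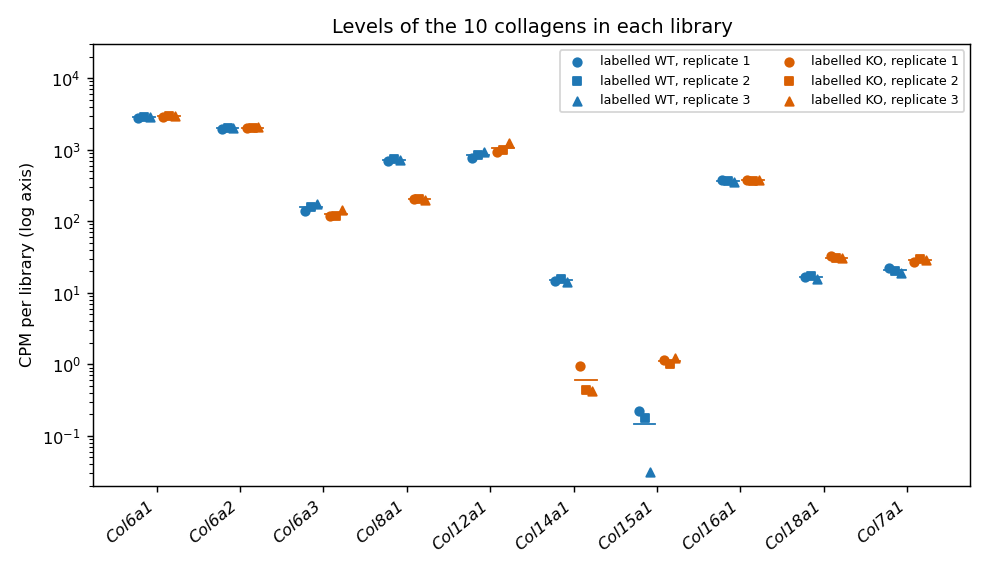
Level of each of the 10 collagens in CPM (log axis) in each library, blue for the 3 WT-labelled libraries and orange for the 3 labelled KO, with a bar at the group mean. The groups are far apart for Col14a1, Col8a1 and Col15a1, while Col6a1, Col6a2 and Col16a1 lie at nearly the same level in all 6 libraries.

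**Figure D2:**
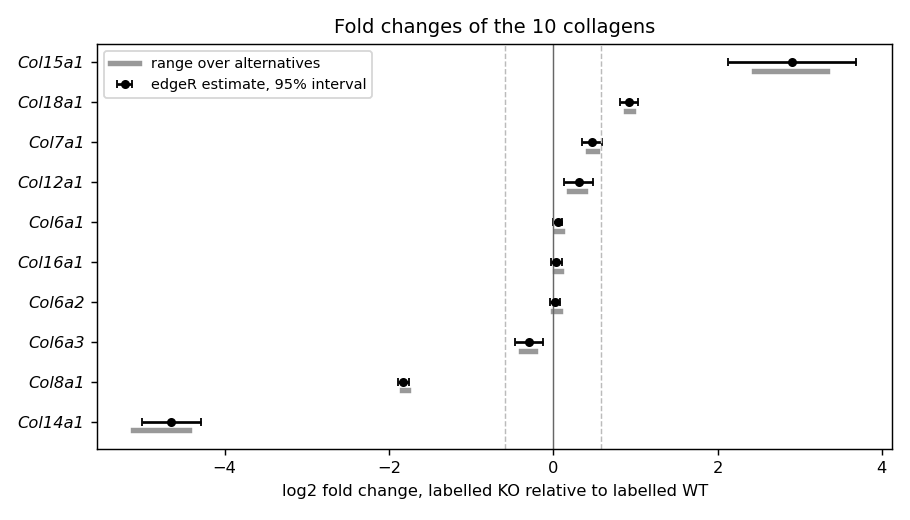
Log2 fold change of each collagen (labelled KO relative to labelled WT) with its 95% confidence interval in black, the range over the alternative analyses as a grey bar, and dashed lines at 1.5-fold. The estimates run from -4.65 for Col14a1 to 2.91 for Col15a1, and the intervals of Col6a1, Col6a2 and Col16a1 include 0.

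The region before the start site was read for the genes that were called and for the Col6a1 and Col6a2 pair, which did not pass the test, to show the sequence that lies there. RefSeq windows (build GRCm38.p6) matched 8 of the 10 collagens, with 10 windows in all, and Col12a1 and Col14a1 had no window. The 250 bases before the start are printed 5′ to 3′ on the strand of the gene, for Col6a1 (chr10:76726045-76726294, minus strand), Col6a2 (chr10:76623405-76623654, minus strand, the more downstream of its 2 windows), Col8a1 (chr16:57754738-57754987, minus strand), Col15a1 (chr4:47207762-47208011, plus strand) and Col18a1 (chr10:77166531-77166780, minus strand, the more upstream of its 2 windows). Capitals mark matches to the motifs searched on both strands.
Col6a1: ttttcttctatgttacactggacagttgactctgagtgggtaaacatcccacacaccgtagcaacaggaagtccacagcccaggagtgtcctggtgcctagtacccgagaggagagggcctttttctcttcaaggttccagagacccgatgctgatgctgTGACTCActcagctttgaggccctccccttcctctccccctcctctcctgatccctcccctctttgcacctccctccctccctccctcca
Col6a2: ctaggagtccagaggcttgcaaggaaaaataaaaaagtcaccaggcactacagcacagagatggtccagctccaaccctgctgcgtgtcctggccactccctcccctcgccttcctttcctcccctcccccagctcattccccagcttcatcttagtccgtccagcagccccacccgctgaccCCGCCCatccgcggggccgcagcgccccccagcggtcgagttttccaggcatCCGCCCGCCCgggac
Col8a1: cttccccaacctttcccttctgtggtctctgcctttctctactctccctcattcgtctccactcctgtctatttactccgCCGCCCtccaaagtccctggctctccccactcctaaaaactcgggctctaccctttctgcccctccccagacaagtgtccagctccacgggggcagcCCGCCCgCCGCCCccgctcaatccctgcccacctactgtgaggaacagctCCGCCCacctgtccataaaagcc
Col15a1: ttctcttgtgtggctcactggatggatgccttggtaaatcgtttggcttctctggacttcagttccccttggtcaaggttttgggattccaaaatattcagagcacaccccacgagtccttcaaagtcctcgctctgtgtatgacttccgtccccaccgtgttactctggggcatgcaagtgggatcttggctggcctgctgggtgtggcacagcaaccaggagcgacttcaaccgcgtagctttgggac
Col18a1: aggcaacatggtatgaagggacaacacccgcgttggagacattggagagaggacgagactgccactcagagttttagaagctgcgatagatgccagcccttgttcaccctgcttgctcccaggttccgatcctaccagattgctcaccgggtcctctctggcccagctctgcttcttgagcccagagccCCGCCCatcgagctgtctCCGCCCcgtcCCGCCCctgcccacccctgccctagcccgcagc
The motifs were the GC box GGGCGG, the GLI consensus GACCACCCA, the TATA box TATAAA and the AP-1 site TGANTCA, and overlapping matches were each counted. Col8a1, which was lower in the KO-labelled libraries, held 4 GC boxes, and Col18a1, which was higher, held 3 in its upstream window and 0 in the other. Col6a2 held 3 in the window printed and 1 in the other. A GC box was found in 6 of the 10 collagen windows and in 32.7% of 32851 RefSeq windows of this length. Both Col6a2 windows, which overlap, are among the 6. The GC content was 53.6% to 75.6% in the 10 collagen windows, against a median of 52.4% over all windows. The shares were not matched for GC content. Col6a1 held the only AP-1 match, 90 bases before its start, where 6.75% of all windows hold one. The Col15a1 window held none of these motifs. The GLI letters were in 0 of the 10 windows and in 0.225% of all windows, and TATAAA in 0 of the 10 and in 12.4% of all. These are matches of letters and not bound sites.

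Among the collagen VI chains, Col6a1 and Col6a2 were close to level between the groups and Col6a3 was lower in the KO-labelled libraries. Col6a1 (ENSMUSG00000001119.7, chr10:76708792-76726168, GRCm38 positions from GENCODE M21 here and below) was at 2769, 2880 and 2847 CPM in the WT-labelled libraries and at 2884, 2919 and 3001 CPM in the KO-labelled libraries. The lowest KO-labelled library lay just above the highest labelled WT. Its fitted log2 fold change was 0.05 ± 0.03 (SE, 95% interval -0.01 to 0.11, adjusted p = 0.130). Col6a2 (ENSMUSG00000020241.13, chr10:76595762-76623630) was at 1958, 2034 and 2034 CPM and at 2017, 2028 and 2072 CPM in the same order, and the groups overlapped. Its fitted log2 fold change was 0.02 ± 0.03 (SE, 95% interval -0.04 to 0.08, adjusted p = 0.521). In this fit the intervals reach no higher than 0.11 and 0.08 on the log2 scale, and they do not cover other choices of scaling. With upper-quartile scaling both passed the test (log2 fold changes of 0.11 and 0.08), and that scaling moved the median of all genes by 0.06. With total counts Col6a1 also passed.

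Col6a3 (ENSMUSG00000048126.16, chr1:90765923-90843971), which encodes the longest of these 3 chains, was at 140, 156 and 172 CPM in the WT-labelled libraries and at 120, 118 and 144 CPM in the KO-labelled libraries. The third KO-labelled library lay above the first labelled WT, so the groups overlapped. The log2 fold change was -0.29 ± 0.08 (SE, adjusted p = 0.00633). The DESeq2 fit gave Col6a3 a larger standard error of 0.13 and an adjusted p of 0.0447, just under the threshold. Within each group the third library was the highest, which also held for Col12a1, described next. Genes with long transcripts were highest in the same libraries. Over 275 genes with a longest transcript above 10000 bases and at least 100 counts in every library, the median deviation of log2 CPM from the group mean was -0.08, -0.01 and 0.10 in the WT-labelled libraries and -0.09, -0.05 and 0.14 in the KO-labelled libraries. For Col6a3, whose longest transcript has 10106 bases, the deviations were -0.15, 0.01 and 0.15, then -0.08, -0.11 and 0.19. With each library corrected for a smooth trend on transcript length, an alternative added after these values were seen, Col6a3 had a log2 fold change of -0.24 with a standard error of 0.04 (adjusted p = 1.64e-04).

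Col12a1 (ENSMUSG00000032332.17, chr9:79598991-79718831) encodes collagen XII, a fibril-associated collagen of dense connective tissue. It was at 773, 856 and 925 CPM in the WT-labelled libraries and at 940, 1003 and 1221 CPM in the KO-labelled libraries, without overlap. Its fitted log2 fold change was 0.31 ± 0.08 (SE, adjusted p = 0.00598), under the 1.5-fold limit. The DESeq2 fit gave Col12a1 a larger standard error of 0.14 and an adjusted p of 0.0482, just under the threshold. Its longest transcript has 11511 bases and its deviations were -0.14, 0.01 and 0.12, then -0.16, -0.06 and 0.22 on the log2 scale. After the correction for length the log2 fold change of Col12a1 was 0.36 with a standard error of 0.04 (adjusted p = 1.03e-06). Leaving out the third KO-labelled library gave 0.19, and the call by adjusted p held (0.00834). Col7a1, with a longest transcript of 9250 bases, did not follow this order within the WT-labelled libraries (0.11, 0.00 and -0.11).

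**Figure D3:**
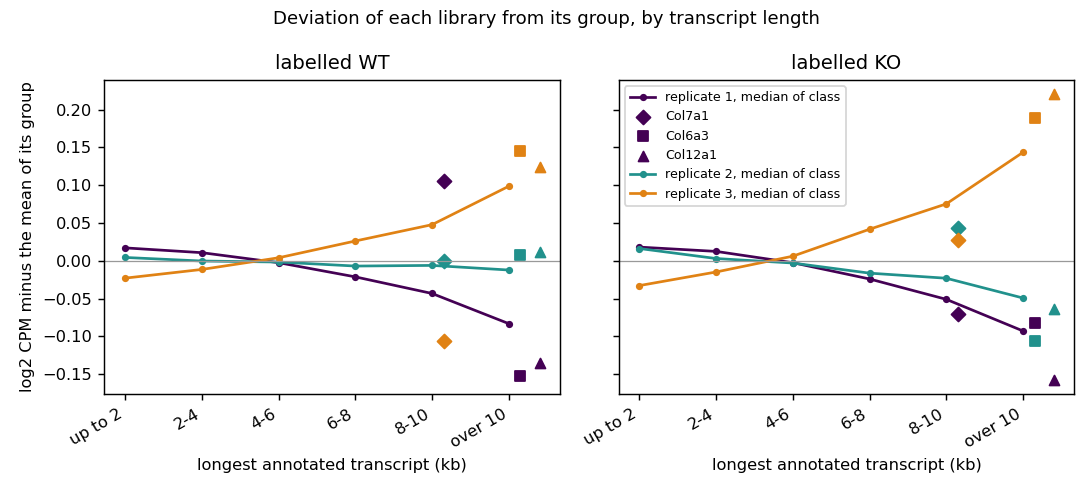
Deviation of log2 CPM in each library from the mean of its group, against the longest annotated transcript in kb, with lines for the median of each length class and points for Col7a1, Col6a3 and Col12a1, coloured by replicate. In both groups the lines of replicate 1 and replicate 3 part as length grows, to -0.08 and 0.10 (labelled WT) and -0.09 and 0.14 (labelled KO) above 10 kb, and in replicates 1 and 3 Col6a3 and Col12a1 lie on the same side of 0 as these lines.

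The ratios between chains, taken within a library, do not depend on library size. Col6a1 had 1.41, 1.42 and 1.40 times the reads of Col6a2 in the WT-labelled libraries and 1.43, 1.44 and 1.45 times in the KO-labelled libraries. The ratio of Col6a1 to Col6a3 was 19.8, 18.5 and 16.6 in the WT-labelled libraries and 24.1, 24.8 and 20.8 in the KO-labelled libraries. For Col6a2 to Col6a3 it was 14.03, 13.04 and 11.85 against 16.8, 17.2 and 14.3. All 3 ratios were higher in every KO-labelled library, by 0.03, 0.34 and 0.31 on the log2 scale, each with an exact two-sided permutation p of 0.1 over 3 against 3 libraries (0.1 after adjustment over the 3 ratios), the smallest this design allows. The ratios to Col6a3 were lowest in the third library of each group, the library in which long transcripts were highest. Per length of the union of exons, Col6a1 had 2.68 ± 0.02 times the level of Col6a2 in the WT-labelled libraries and 2.74 ± 0.02 times in the KO-labelled libraries (SD, n = 3 each). Per length of the longest transcript these were 1.69 ± 0.01 and 1.72 ± 0.01, because the annotated Col6a2 exons sum to 8326 bases and its longest transcript to 4912. The gap to Col6a3 was large on both scales, at 49.98 ± 4.46 times (labelled WT) and 63.4 ± 5.84 times (labelled KO) by union length for Col6a1.

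**Figure D4:**
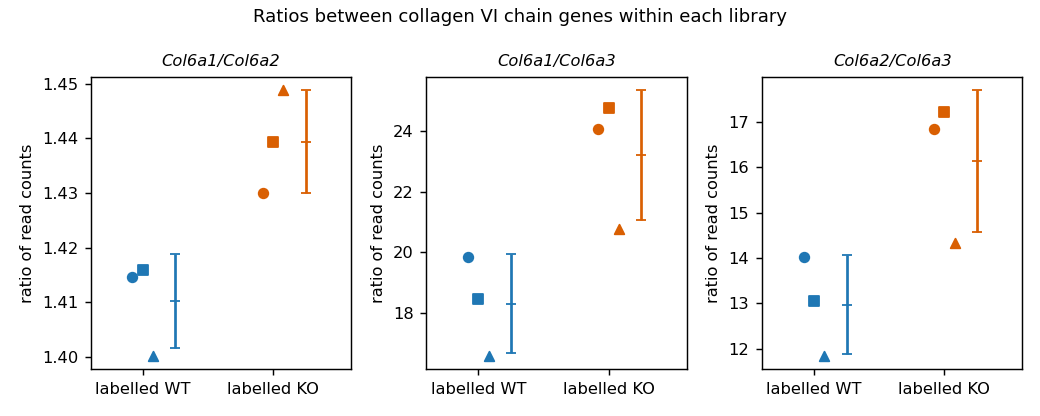
Ratio of read counts between collagen VI chain genes in each library (points, 3 labelled WT in blue and 3 labelled KO in orange; axes do not start at 0), with the mean and SD beside them. Each ratio is higher in all KO-labelled libraries, from 1.43 to 1.45 against 1.40 to 1.42 for Col6a1 to Col6a2.

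Col8a1 (ENSMUSG00000068196.5, chr16:57624258-57754737), a chain of the network collagen VIII, was lower in every KO-labelled library. It was at 699, 733 and 718 CPM in the WT-labelled libraries and at 203, 205 and 198 CPM in the KO-labelled libraries. The groups were far apart, and the 3 libraries within each were close. The log2 fold change was -1.83 ± 0.03 (SE, adjusted p = 1.53e-13), which is 3.55-fold lower. Col8a2, the partner chain, chosen after its values were seen, had a log2 fold change of -0.19 ± 0.06 (SE, adjusted p = 0.0205) with groups that overlapped. It was at a mean of 7.49 ± 0.61 CPM per kb in the WT-labelled libraries and 6.59 ± 0.40 in the KO-labelled libraries, against 91.5 ± 2.21 and 25.8 ± 0.48 CPM per kb for Col8a1.

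Col14a1 (ENSMUSG00000022371.16, chr15:55307750-55520803) encodes collagen XIV, a fibril-associated collagen that binds decorin and regulates fibril diameter. It had 462, 528 and 453 counts in the WT-labelled libraries and 33, 18 and 14 in the KO-labelled libraries, or 14.7, 15.8 and 14.2 CPM against 0.932, 0.432 and 0.424 CPM. The first KO-labelled library was the highest of its group, yet far under every WT-labelled one. The log2 fold change was -4.65 ± 0.16 (SE, adjusted p = 1.27e-10), or 25.1-fold lower. Col16a1 (ENSMUSG00000040690.15, chr4:130047840-130099283), the third fibril-associated member, was at 381, 359 and 354 CPM in the WT-labelled libraries and 378, 369 and 377 CPM in the KO-labelled libraries. Its groups overlapped and its log2 fold change was 0.04 ± 0.03 (SE, 95% interval -0.03 to 0.11, adjusted p = 0.328), so that a change above 0.11 on the log2 scale lies outside the interval. It passed the test under upper-quartile scaling alone (log2 fold change 0.10).

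The 2 collagens with an endostatin-type C-terminal domain were both higher in the KO-labelled libraries, at very different levels. Col15a1 (ENSMUSG00000028339.17, chr4:47208161-47313167) had 7, 6 and 1 counts in the WT-labelled libraries and 40, 42 and 40 in the KO-labelled libraries, or 0.223, 0.179 and 0.0313 CPM against 1.13, 1.01 and 1.21 CPM. Its fitted log2 fold change was 2.91 ± 0.36 (SE, 95% interval 2.13 to 3.69, adjusted p = 1.65e-05). Only the KO-labelled libraries had enough reads for the filter. The gene thus entered the test through the group where it was higher, and the adjusted p is no separate support for that direction. At these counts the size is loosely known, and without the third WT-labelled library, which had 1 count, it was 2.45. Exons of Col15a1 share 14 bases with Gm12426 on the opposite strand, and whether counting used strand is not given in the sources used here. Col18a1 (ENSMUSG00000001435.15, chr10:77052178-77166548) was at 16.6, 17.0 and 15.7 CPM in the WT-labelled libraries and at 32.2, 30.9 and 30.2 CPM in the KO-labelled libraries. Every KO-labelled library was above every WT-labelled library by far more than the spread within a group. Its fitted log2 fold change was 0.92 ± 0.05 (SE, adjusted p = 9.14e-09), or 1.89-fold higher. Which of its 2 start sites was used cannot be read from counts per gene.

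Col7a1 (ENSMUSG00000025650.13, chr9:108953586-108984875), the anchoring fibril collagen, was at 21.99, 20.42 and 18.98 CPM in the WT-labelled libraries and 27.0, 29.2 and 28.9 CPM in the KO-labelled libraries, with no overlap. Its fitted log2 fold change was 0.47 ± 0.06 (SE, 95% interval 0.34 to 0.60, adjusted p = 1.72e-05). This is 1.39-fold higher and under the 1.5-fold limit, which the upper end of the interval just passes. An annotated microRNA, Mir711, shares 36 bases of its exons on the same strand.

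Levels of all 10 genes were set side by side as CPM per kb of the union of annotated exons. On that scale Col6a1 stood highest of the 10, at 647 ± 12.9 CPM per kb in the WT-labelled libraries and 670 ± 13.7 in the KO-labelled libraries (SD, n = 3 each). Col6a2 followed at 241 ± 5.26 and 245 ± 3.48 CPM per kb. The choice of length weighs on Col6a2 and Col8a1, whose means over 6 libraries were 243 and 58.6 CPM per kb of union exon and 412 and 89.9 per kb of the longest transcript. Col8a1 came next in the WT-labelled libraries, above Col12a1 (55.9 ± 5.001) and Col16a1 (54.0 ± 2.07), which did not differ from each other beyond their spread. In the KO-labelled libraries, Col8a1 lay under Col12a1 (69.3 ± 9.69) and Col16a1 (55.5 ± 0.77 CPM per kb). Col6a3 was at 13.0 ± 1.34 and 10.6 ± 1.24 CPM per kb. Low in the order of the WT-labelled libraries were Col18a1 (2.34 ± 0.09), Col14a1 (2.12 ± 0.11) and Col7a1 (1.99 ± 0.15 CPM per kb), the last pair within their spread, and Col15a1 was lowest at 0.0228 ± 0.0158. In the KO-labelled libraries, Col14a1 was lowest, at 0.0850 ± 0.0415 CPM per kb, under Col15a1 at 0.176 ± 0.0162.

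**Figure D5:**
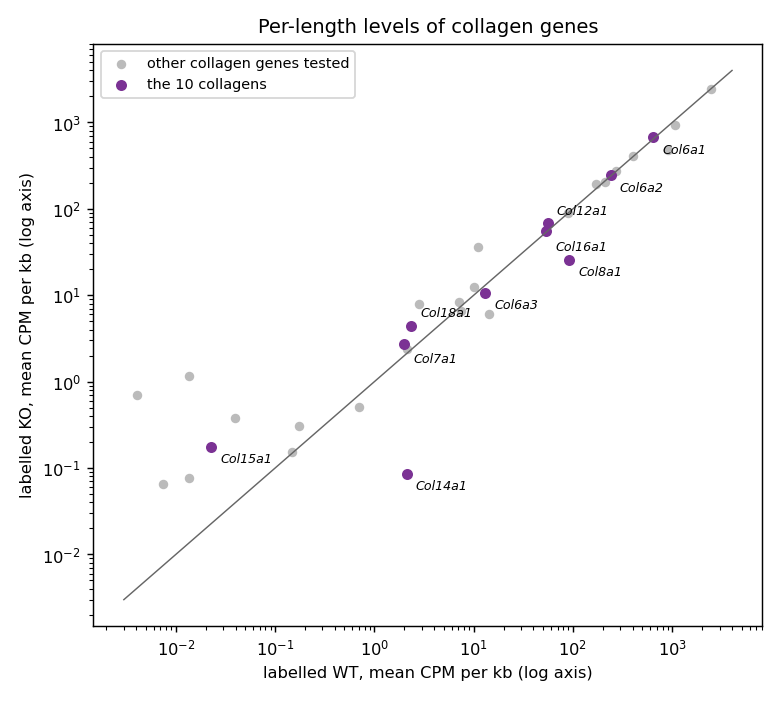
Mean CPM per kb of exon in the KO-labelled libraries against the WT-labelled libraries (both log axes) for 33 collagen genes tested, the 10 described here in purple with names and the others in grey, with the line of equal levels. Col6a1 and Col6a2 lie on the line near the top, Col8a1 and Col14a1 below it, and Col15a1 and Col18a1 above it.

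Summed over the 10 genes, the level was 1109 ± 23.2 CPM per kb in the WT-labelled libraries and 1084 ± 27.6 in the KO-labelled libraries (exact two-sided permutation p = 0.2, adjusted p = 0.229 over 8 such comparisons). The 10 genes made up 15.6%, 16.8% and 17.1% of the summed per-length level of all 33 collagen genes in the WT-labelled libraries and 17.0%, 17.7% and 17.8% in the KO-labelled libraries, and the groups overlapped. Within the 10, the collagen VI chains held 81.2%, 81.4% and 81.2% against 85.8%, 85.6% and 84.9%, and Col8a1 held 8.24%, 8.32% and 8.19% against 2.44%, 2.44% and 2.27%. Both of these shares were apart in all libraries (exact two-sided permutation p = 0.1, the smallest possible, adjusted p = 0.16). Shares of a sum are tied to each other, so that a lower share of Col8a1 raises the others.

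For each collagen, the gene outside the 10 with the most similar profile was taken among 11451 genes with at least 100 counts in some library, as the smallest root mean square difference of log2 CPM over the 6 libraries, each gene centred on its mean. For Col8a1 it was Scara5, a ferritin receptor gene, at 300, 323 and 316 CPM in the WT-labelled libraries and 84.4, 88.6 and 85.7 CPM in the KO-labelled libraries, with a difference of 0.03, and 16 genes lay within 0.1 of Col8a1. For Col15a1 it was Tll1, with a difference of 0.30, and for Col14a1 it was BC147527, with a difference of 0.25, and no gene lay within 0.1 of either. BC147527 was at 0.0847, 0.0480 and 0.0606 CPM in the KO-labelled libraries, at or under 3 counts. Its match there thus leans on the 0.05 CPM added before the log. Col18a1 was closest to Ncapg2, Col7a1 to Ppan, Col6a3 to Alms1 and Col12a1 to Nbea, with differences of 0.02 to 0.03. Within 0.1 lay 119 genes for Col18a1, 426 for Col7a1, 263 for Col6a3 and 146 for Col12a1. Col16a1 was closest to the fibrillar collagen gene Col5a2, Col6a1 to Bmpr1a and Col6a2 to Specc1l, but 4384 to 4630 genes lay within 0.1 of these 3.

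Other collagen genes and partners of these collagens were read from lists. Of 19 other network, beaded and fibril-associated collagens, 12 were tested, and 6 were called, 5 higher and 1 lower (median log2 fold change 0.16). The basement membrane chain Col4a6 rose by 1.72 on the log2 scale (SE 0.04, adjusted p = 6.59e-12), and Col4a4 rose from 4, 4 and 6 counts to 398, 512 and 435. Col4a3 had 1, 2 and 1 counts against 213, 280 and 273. Col10a1, also called higher, was at a mean of 0.0391 CPM per kb against 0.377. Col4a3, Col4a4 and Col10a1 had enough reads for the filter only in the KO-labelled libraries. They thus entered the test through the group where they were higher, and their calls are no separate support for that direction. Col28a1, whose chain resembles those of collagen VI, fell by 1.22 on the log2 scale (SE 0.04, adjusted p = 1.68e-10). Of 11 fibrillar collagens 9 were tested and 3 called, 2 higher and 1 lower (median 0.14). Among them Col5a3 rose by 1.48 and Col3a1 fell by 0.94 on the log2 scale. The other one called higher, Col11a1, was at a mean of 0.00736 CPM per kb in the WT-labelled libraries and 0.0661 in the KO-labelled libraries. Of 4 transmembrane collagens 2 were tested, and 1 was called, higher. It was Col17a1, at a mean of 0.0136 CPM per kb in the WT-labelled libraries and 0.0776 in the KO-labelled libraries. Col11a1 and Col17a1 also passed the filter on reads only through the KO-labelled libraries, where they were higher. These counts stand beside 17.7% of all tested genes.

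Of 14 receptors and membrane partners, 13 were tested and 4 were called, all 4 higher in the KO-labelled libraries (median log2 fold change 0.27), or 30.8% beside 17.7% of all tested genes. Itga11, an integrin chain that binds fibrillar collagen, rose by 3.63 on the log2 scale, and Itga6, a laminin-binding chain, by 1.77. Of 19 matrix partners 18 were tested and 11 called, 7 higher and 4 lower (median -0.14), or 61.1% beside the same 17.7%. Lamb3, a chain of the laminin that collagen VII binds, rose by 3.94, Tgfbi, whose product binds collagen VI, by 2.38 and the hyaluronan synthase gene Has2 by 1.97 on the log2 scale. The proteoglycan gene Lum fell by 5.60, the tenascin gene Tnxb fell by 1.82 and Dcn, which encodes decorin, fell by 1.55 on the log2 scale. Lum had 349, 411 and 370 counts in the WT-labelled libraries and 12, 7 and 7 in the KO-labelled libraries. It passed the filter on reads only through the WT-labelled libraries, where it was higher, so its call is no separate support for that direction. Of 18 processing and cleaving enzymes 16 were tested and 2 called, 1 in each direction (median 0.06), and the procollagen protease gene Tll1 rose by 3.07. That is 12.5% of the enzymes tested, and no test of the lists was made.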

How the data were processed

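The authors deposited raw counts of reads per gene and log2 CPM values named as voom output. The submitters' processing notes name STAR 2.7.2b, featureCounts, limma and the build GRCm38.p6, and libraries were made from polyadenylated RNA. Samples were grouped by the genotype label and numbered in the order of their accessions. Differences in counts were tested by edgeR 4.0.16, run under R 4.3.3 (TMM scaling, filterByExpr, quasi-likelihood F test, no covariates), and p-values were adjusted over 14289 genes. Standard errors came from the fold change and its F statistic. CPM used TMM-scaled totals. A floor of 3 counts was 0.072 to 0.0957 CPM. Libraries of a group differed by more than sampling noise (chi-square per degree of freedom 2.47 to 7.53). Alternatives used DESeq2 1.42.0 and limma 3.58.1, the latter also on the deposited log2 values. The model fits were tested on simulated data.

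The members and lists were chosen with earlier results of these data known. Named genes are the 10 collagens, Gli2, Gli3, the most similar gene for each collagen (pseudocount 0.05 CPM), and up to 3 called genes in each direction per list with 100 or more counts in each library of the group where they were higher. Col8a2, Col10a1, Col11a1, Col17a1, Pcbp3 and Slc19a1 are named outside that rule. Of 14831 identifiers, 14822 matched GENCODE M21 without their version.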

Additional observations from a re-analysis of the deposited data

How the results depend on the processing

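Over the alternatives, 145 of 149 fold changes of the 10 collagens kept their direction and their side of the threshold, and 0 reversed. The exceptions passed only with another scaling: Col6a1 (0.11 with upper-quartile scaling, 0.0859 with total counts), Col6a2 (0.0787) and Col16a1 (0.10), both with upper-quartile scaling. Without the fold limit, 8391 of 14289 tested genes passed (58.7%), 4277 higher and 4114 lower, and of the collagens 4 were higher and 3 lower. With a limit of 2-fold, 1456 of the 14289 passed, 1052 higher and 404 lower, and of the collagens 1 was higher and 2 were lower. Requiring at least 10 counts in every library left 1 collagen called higher, because Col15a1 was no longer tested. Upper-quartile scaling raised the share of called genes that were higher from 65.6% to 70.7%. Leaving out each library, the differences in log2 ratio ranged from 0.02 to 0.03 for Col6a1 to Col6a2, from 0.27 to 0.42 for Col6a1 to Col6a3 and from 0.25 to 0.40 for Col6a2 to Col6a3, and per exon length they are the same by construction. Per length of the longest transcript, the mean CPM per kb over 6 libraries moved from 658 to 703 for Col6a1, 243 to 412 for Col6a2, 11.8 to 14.004 for Col6a3, 58.6 to 89.9 for Col8a1, 62.6 to 82.8 for Col12a1, 0.0993 to 0.122 for Col15a1, 54.8 to 71.0 for Col16a1, 3.38 to 4.25 for Col18a1 and 2.37 to 2.64 for Col7a1. Depth limits Col15a1 and the low group of Col14a1. No paired analysis was possible because the labels give no replicate numbers that the groups share.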

Other observations

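Col6a2, Col6a1 and Col18a1 lie within 571 kb of chromosome 10, with Col6a2 and Col6a1 separated by 85.2 kb. GENCODE M21 lists 12 genes in that interval, and 5 of them were tested. Between the collagens lie Pcbp3, which encodes an RNA-binding protein, and Slc19a1, the reduced folate carrier gene. Pcbp3 had 347, 386 and 374 counts in the WT-labelled libraries and 575, 684 and 538 in the KO-labelled libraries, so that it rose by 0.51 on the log2 scale (SE 0.06, adjusted p = 6.21e-06). Slc19a1 had 915, 974 and 883 counts against 1485, 1681 and 1261, a rise of 0.49 (SE 0.05, adjusted p = 1.56e-06). Both rises were under the 1.5-fold limit, so neither gene was called, and 58.7% of all tested genes passed by the adjusted p alone. Along the chromosome the values were 0.02 for Col6a2, 0.05 for Col6a1, 0.51 for Pcbp3, 0.49 for Slc19a1 and 0.92 for Col18a1. Whether position has a part in these values was not tested. Pcbp3 and Slc19a1 were named for their position, after the values were seen. Slc19a1 and Col18a1 overlap at their ends on opposite strands, but their annotated exons share no base.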
